A study of Homo sapiens with 18 samples.

Results

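Total RNA libraries of MDA-MB-436, an established triple-negative human breast cancer cell line, fell into 2 sets by how many genes were detected, that is, had a count above 0. The many-feature libraries were SL1KO clone 1 replicate 1 and CTRL replicates 1 and 2, each with more than 34000 genes detected. The few-feature libraries were SL1KO clone 1 replicates 2 and 3 and CTRL replicate 3, each with fewer than 34000. These 6 were all of the TruSeq libraries, among 18 libraries in the series, and the other 12 were PLATE-seq libraries of polyadenylated RNA, 2 each of SL1KO clones 1, 2 and 3, of cells with an siRNA against SMARCAL1, of cells with a control siRNA and of CTRL. Their titles name MDA-MB-436, but their cell line tags each give another number, so the line of these 12 rests on the titles. SL1KO clone 1 is a single clonal line with a knockout of SMARCAL1, a helicase that remodels stalled replication forks, and CTRL is labelled only as a control. Cells of both genotypes were grown in the same medium, with no drug or other agent named. The TruSeq kit of the labels is one for stranded total RNA, so RNAs without a poly(A) tail enter these libraries. The labels call the replicates biological but do not say that they came from separate cultures, so the spread between them may be partly technical.

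A total RNA library holds several pools of molecules beside messenger RNA. Small structured RNAs of the nucleolus and the spliceosome, the RNA parts of RNase P, RNase MRP, telomerase and the signal recognition particle, and histone messenger RNAs lack the usual poly(A) tail. Mitochondria transcribe both strands of their genome into long precursors, from which transfer RNAs are cut out between the messenger and ribosomal RNAs. Many genes that a cell barely uses have a handful of reads in a deep library, and they make up much of the number of genes with any count.

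The knockout 1 library had 37939 genes detected, control 1 had 39068 and control 2 had 36042, against 28621 in knockout 2, 30653 in knockout 3 and 30522 in control 3. The values closest to the cut were thus 36042 above it and 30653 below it. Library totals ran the other way. They were 10257584, 11120115 and 12172405 counts in the same order in the many-feature libraries, against 18077956, 15689281 and 19270648 in the few-feature libraries. The libraries with more genes therefore had fewer counts in all. When each library was brought by calculation to the smallest total, the expected number of genes detected was 37939, 38501 and 34878 in the many-feature libraries, against 26138, 28388 and 27378 in the few-feature libraries. The ratio of the means was 1.26 at full depth and 1.36 at that common depth. Among genes with at least 5 counts it was 1.11, so most of the gap lay in genes with 1 to 4 counts. Because the libraries were chosen by these counts, the differences between the 2 sets are given as a description and no test of them was made.

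**Figure D1:**
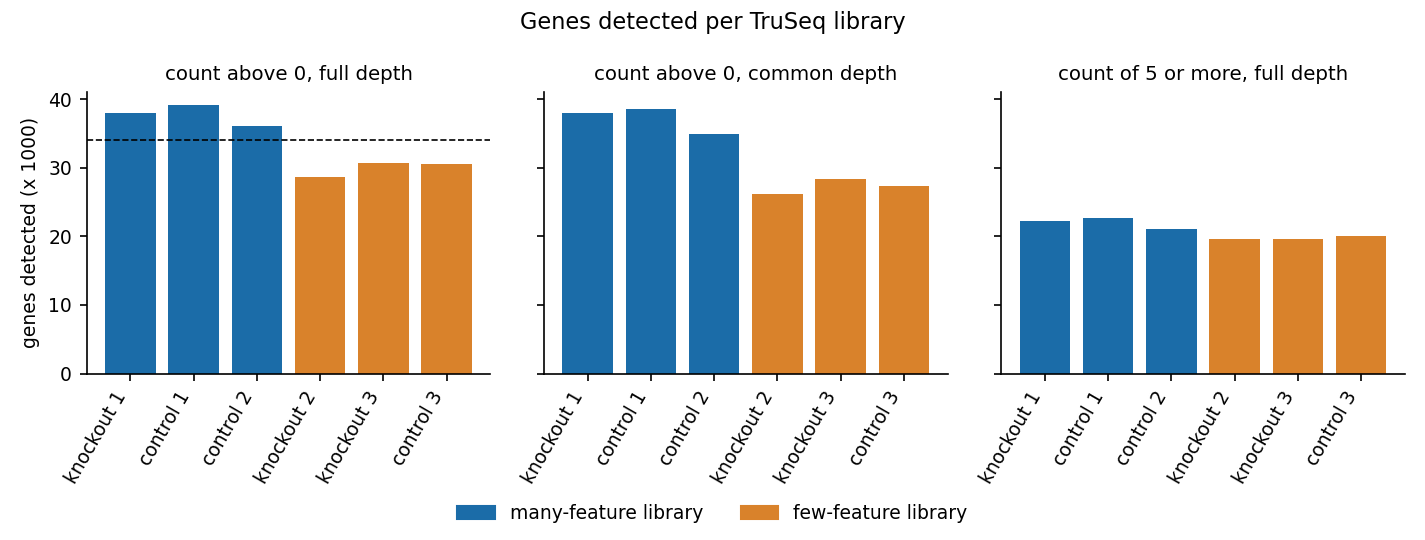
Genes detected in each TruSeq library (bars), at full depth, at the common depth of 10257584 counts, and with at least 5 counts. The dashed line marks 34000 genes. All 3 many-feature libraries stand above all 3 few-feature libraries in each panel, with ratios of the means of 1.26, 1.36 and 1.11.

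The 2 sets also differed in a label. The labels give each TruSeq library a number, and the many-feature libraries had the 3 lowest of the 6. The labels do not say what the number stands for, so it and the split cannot be told apart. On the first principal component, which held 48.11% of the variance in log2 level, the many-feature libraries lay at 19.4, 32.7 and 19.99 and the few-feature libraries at -31.1, -25.4 and -15.7. Both genotypes stood on both sides, and within each side the knockout libraries lay below the control libraries on this axis. Shares of a whole library are given here in ppm, counts per 1000000 counts of its plain total, and levels of single genes in CPM, the same after scaling by TMM, a correction for library composition. The markers listed for MDA-MB-436 were all detected in every library, 10 of 10, and their summed level was 3907 to 4237 ppm in the many-feature libraries and 4146 to 4443 in the few-feature libraries. SMARCAL1 RNA itself averaged 14.0 ± 0.696 CPM in knockout libraries and 14.7 ± 1.21 CPM in control libraries (SD, n = 3 each), so the gene's count does not tell the genotypes apart.

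By RNA class, small nucleolar RNAs and Cajal body RNAs had the lowest ratio of share between many-feature and few-feature libraries. These RNAs guide chemical changes on ribosomal and spliceosomal RNA. They made up 2257 ppm in knockout 1, 2133 in control 1 and 2933 in control 2, against 11419 in knockout 2, 5655 in knockout 3 and 9618 in control 3. The ratio of the means was 0.274. The U3 entries SNORD3D, SNORD3C and SNORD3B-2 had 53526, 53546 and 54171 counts in knockout 2, nearly the same number, and held much of the class share there. They may be 1 signal summed more than once, and the rank of the class rests on them. Small nuclear RNAs had a mean of 6013 ± 1043 ppm in the many-feature libraries and 9954 ± 1243 in the few-feature libraries. The spliceosomal RNAs listed summed to only 219 to 252 ppm against 255 to 271 ppm, so the class difference lay mostly outside them. The class of miscellaneous RNAs, which holds the signal recognition particle RNA and its copies, had 28137 ± 9461 ppm in the many-feature libraries and 43827 ± 7522 in the few-feature libraries (SD, n = 3 each). In that class 1 many-feature library, control 2, had 39033 ppm, close to the 39351 and 39618 of the knockout libraries on the other side.

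Protein-coding genes took 904360 ± 9034 ppm in the many-feature libraries and 871020 ± 7097 in the few-feature libraries. Protein-coding genes detected numbered 18491, 18632 and 18179 in knockout 1, control 1 and control 2, against 16429, 17136 and 16974 in knockout 2, knockout 3 and control 3. Long intergenic RNAs detected numbered 4563, 4781 and 4109 in knockout 1, control 1 and control 2, against 2376, 2876 and 2919 in knockout 2, knockout 3 and control 3. Their summed share overlapped between the sides, at 10114 to 10592 ppm against 10250 to 12728 ppm, with means of 10383 and 11852. That sum includes AC007952.4, an entry over the small nucleolar RNA gene SNORD3D. AC007952.4 had 232, 192 and 394 CPM against 3111, 1218.5 and 2579 CPM, and the higher mean of the few-feature libraries rests on it. Processed pseudogenes, copies of messenger RNAs set back into the genome, had 4876, 5210 and 4520 members detected in the many-feature libraries, against 3089, 3410 and 3327 in the few-feature libraries. Antisense genes had 3528, 3726 and 3304 detected, against 2349, 2572 and 2597. Many more non-coding genes were thus seen in the many-feature libraries while the whole non-coding share was not larger there.

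The extra genes were sparse. Genes with 1 to 5 counts in all 6 libraries together numbered 15960, of which 5720 to 7752 were seen in a many-feature library and 2003 to 2801 in a few-feature library. Of genes with 21 to 100 counts in all, 6572 to 6602 of 6661 were seen in a many-feature library, against 6077 to 6355 in a few-feature library. All 15443 genes above 100 counts were seen in every library. Counts in all 3 many-feature libraries and in no few-feature library were found for 1497 genes, with a median of 6 counts over the 3, and the reverse was found for 58 genes. Of the 1497, 355 were long intergenic RNAs, 338 protein-coding genes, 279 processed pseudogenes and 208 antisense genes. ENPP3, an ectonucleotide pyrophosphatase, had the most, with 8 counts in knockout 1, 20 in control 1 and 13 in control 2, and 0 in the other 3 libraries, and it was picked after its values were seen. A count of 0 in a library allows up to 3 counts of its total, and counting error is all that this limit covers.

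Gene families that breast cells are not known to use were part of this background. Olfactory receptor genes, which encode the odour sensors of the nose, had 381 members in the table, and their sum was 57.9 ppm in knockout 1, 56.4 in control 1 and 39.7 in control 2, against 6.75 in knockout 2, 10.3 in knockout 3 and 8.67 in control 3. The ratio of the means was 5.98, and 186 to 211 of them were detected in a many-feature library against 66 to 96 in a few-feature library. Antigen receptor segments, which are joined into antibody and T cell receptor genes in lymphocytes, summed to 19.5 ± 3.13 ppm in the many-feature libraries and 5.24 ± 0.963 in the few-feature libraries. Other families listed as silent in breast were defensins, taste receptors, keratin-associated proteins and alpha interferons. Their sum differed less, with 24.6 to 38.5 ppm in the many-feature libraries and 21.5 to 24.2 ppm in the few-feature libraries, a ratio of 1.42. Much of that sum was 1 taste receptor gene, TAS2R14, which was not silent. It overlapped between the sides, at 10.5 to 15.9 ppm against 11.99 to 14.2 ppm, so the smaller ratio rests in part on it. Of these families, 59 to 65 members were detected in a many-feature library against 30 to 37 in a few-feature library. None of the olfactory receptors passed the filter on low counts. The genes outside that filter, 39749 in number, took 5982 ± 1179 ppm in the many-feature libraries and 2218 ± 229 in the few-feature libraries, a ratio of 2.70.

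Markers of other cell types differed in the same way where they were near 0. The 6 endothelial markers summed to 8.22 to 10.7 ppm in the many-feature libraries and 2.38 to 4.26 in the few-feature libraries. The 6 fibroblast markers summed to 4.41 to 8.29 ppm against 1.77 to 2.65, and the 4 erythroid markers to 0.411 to 0.877 against 0 to 0.259. The 8 leukocyte markers overlapped, with 11.4 to 15.8 against 7.14 to 17.6 ppm, and so did the 9 luminal markers, with 68.3 to 78.8 against 64.4 to 69.2 and TFF1 at 0 in every library. VWF, the clotting factor of endothelium, had 4.17, 4.78 and 2.91 CPM in knockout 1, control 1 and control 2, against 0.232, 0.463 and 1.21 CPM in knockout 2, knockout 3 and control 3. The part of other cells in the split was not tested. In bulk RNA, a difference in the number of cells of a type and a difference in RNA per cell cannot be told apart.

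**Figure D2:**
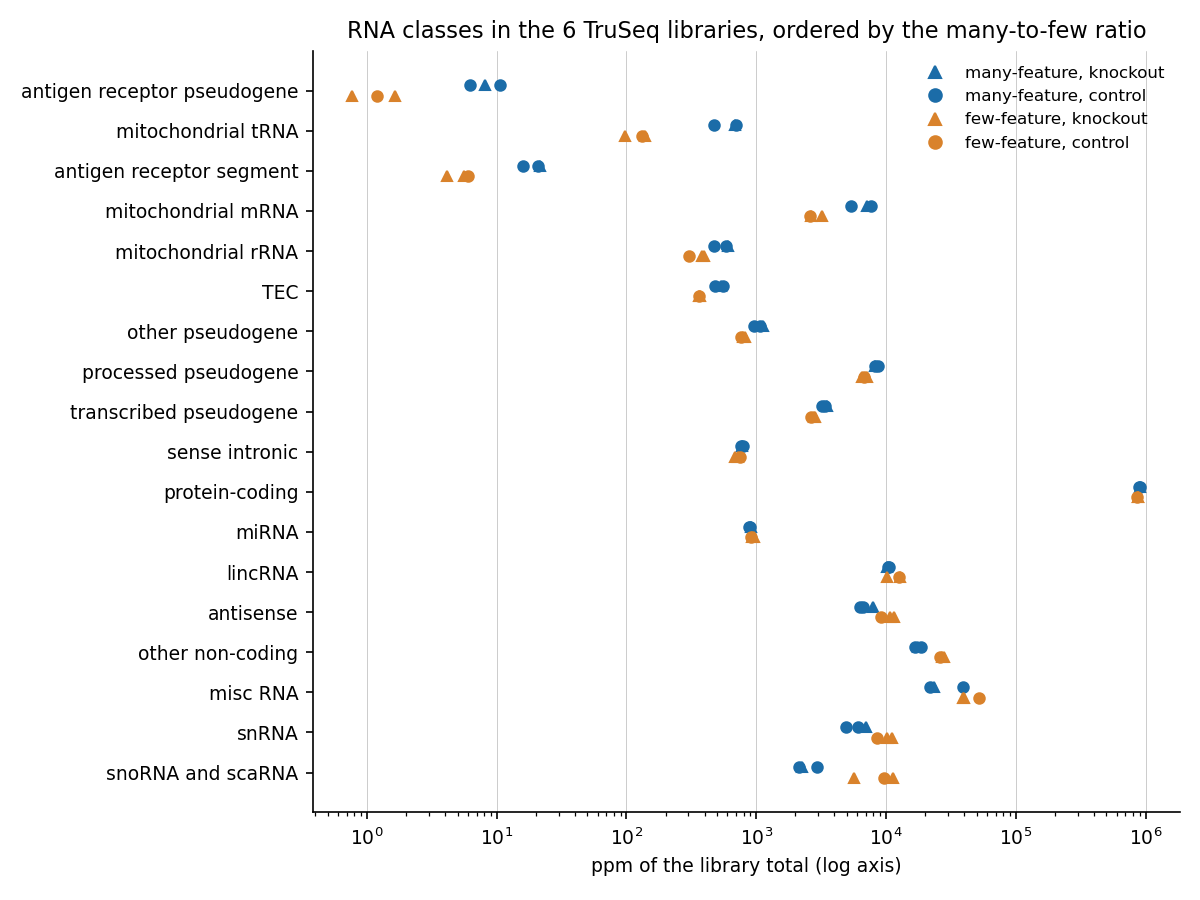
Summed counts of each RNA class in ppm of the library total (log axis), with many-feature libraries in blue above few-feature libraries in orange, triangles for knockout and circles for control. Small nucleolar RNAs, at 2133 to 2933 against 5655 to 11419 ppm, are at the bottom, and mitochondrial transfer RNAs, at 473 to 704 against 97.4 to 139, are near the top.

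Of 57120 genes in the table, 17371 passed the filter on low counts and were compared one by one. A gene was counted as different when its fitted difference was at least 2-fold, with knockout status as a term, and its CPM did not overlap between the sides. By that rule 717 genes (4.13%) were higher and 70 (0.403%) lower in the many-feature libraries. Without the fold limit, 2644 genes (15.2%) were higher and 2629 (15.1%) lower without overlap. The median over all genes was 0.0183 on the log2 scale. TMM scaling centres the differences, so this median and the balance of the 2 counts say nothing of an overall shift. The filter let in genes through the side where they were high, and with a filter on the mean of all 6 libraries the 717 became 336. Both counts rose whichever library was left out, to 1002 to 1555 higher and 75 to 140 lower genes. Without control 2 they were 1555 and 140, and without control 3 they were 1095 and 126. Without knockout 1 the lower genes were 111. A rule of no overlap is easier to meet with fewer libraries, so these runs do not tell how far the counts rest on single libraries.

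The 717 higher genes, 4.13% of all tested, included 440 of 13659 protein-coding genes tested (3.22%) and 71 of 539 long intergenic RNAs. They also held 54 of 575 antisense genes, 27 of 1046 processed pseudogenes and members of other classes. All 22 mitochondrial transfer RNAs and 8 of 13 mitochondrial messenger RNAs were among them. The 70 lower genes, 0.403% of all tested, held 20 of 13659 protein-coding genes and 16 of 196 small nucleolar or Cajal body RNAs. A further 10 of 133 microRNA loci and 7 of 539 long intergenic RNAs were lower by this rule. So were 5 of 42 small nuclear RNAs, 5 of 49 miscellaneous RNAs and 7 others. Level divided them. Of the 440 higher protein-coding genes, 437 had a mean under 5 CPM, and the highest level group, 50 CPM or more, held none of them among 4307 genes. Of the 12 higher genes with the largest difference at 5 CPM or more in the higher side, 10 were mitochondrial and the other two were NEAT1 and TTN.

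**Figure D3:**
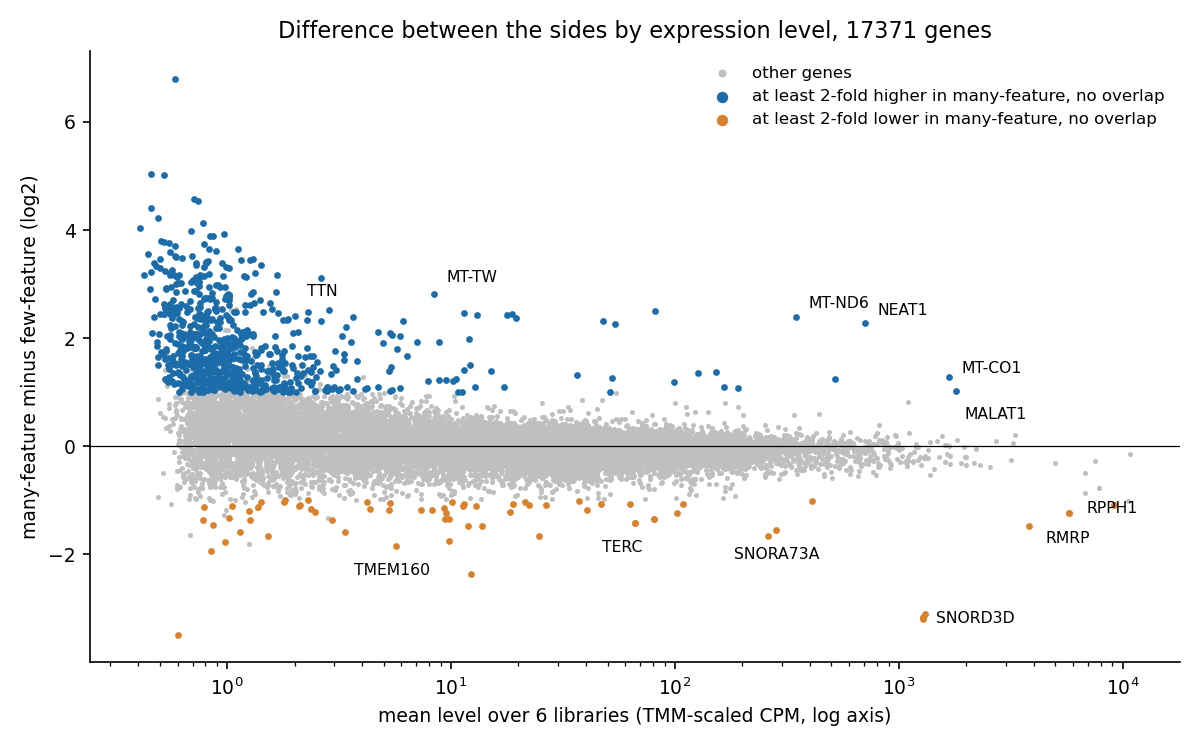
Difference between many-feature and few-feature libraries (log2, knockout status as a term) against the mean level over the 6 libraries (TMM-scaled CPM, log axis) for 17371 genes. Blue points are the 717 genes at least 2-fold higher without overlap, most of them below 5 CPM, and orange points the 70 lower ones. NEAT1 at 2.28 and SNORD3D at -3.19 are well expressed genes at either end.

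NEAT1, the long non-coding RNA that builds nuclear paraspeckles, had 1034 CPM in knockout 1, 1222 in control 1 and 1283 in control 2, against 231 in knockout 2, 223 in knockout 3 and 242 in control 3. The gene lies at chr11:65422774-65445540 on the plus strand (GRCh38), and its difference was 2.28 ± 0.06 on the log2 scale (SE). Values within a side were close together and the sides lay far apart. Within knockout libraries alone the difference was 2.19 and within control libraries 2.37. MALAT1, its neighbour and a nuclear speckle RNA, had 2300, 2693 and 2253 CPM in the many-feature libraries, against 1399, 1085 and 1124 CPM in the few-feature libraries, a difference of 1.01 ± 0.08. Of 11 nuclear long non-coding RNAs tested, 8 (72.7%) were higher without overlap and 0 lower, against 15.2% and 15.1% of all genes. Of the 8, 4 were higher by at least 2-fold, and the median of the 11 was 0.25 on the log2 scale. MEG3, an imprinted RNA, had 3.62, 2.73 and 1.53 CPM against 0.116, 0.861 and 0.440 CPM. KCNQ1OT1, which silences imprinted genes around KCNQ1, had 3.71, 3.41 and 2.18 CPM against 0.464, 1.59 and 1.05 CPM. In the PLATE-seq libraries, NEAT1 was at 241 to 882 ppm.

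Mitochondrial genes as a whole took 8371 ppm in knockout 1, 8909 in control 1 and 6368 in control 2, against 3696 in knockout 2, 3162 in knockout 3 and 3023 in control 3. All 37 were higher in every many-feature library than in every few-feature library. Their differences were ordered by kind and strand. The 8 transfer RNA genes of the minus strand had a median of 2.43 on the log2 scale, with a narrow range of 2.27 to 2.50, and the 14 of the plus strand a median of 1.96, from 1.11 to 2.81. The 12 plus-strand messenger RNAs had a median of 1.08, from 0.63 to 1.37, while the 2 ribosomal RNAs, MT-RNR1 and MT-RNR2, had 0.59 and 0.58. MT-ND6, a complex I subunit and the only messenger RNA of the minus strand, had 649, 639 and 451 CPM in the many-feature libraries, against 83.8, 133 and 119 CPM in the few-feature libraries. Its difference of 2.40 ± 0.11 lay within the range of the transfer RNAs of its strand and above that of the 12 other messenger RNAs.

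Single genes of each kind showed sides that did not overlap. MT-TE, the glutamate transfer RNA next to MT-ND6 on the minus strand, had 153, 158 and 104 CPM in knockout 1, control 1 and control 2, against 18.7, 30.1 and 26.1 CPM in knockout 2, knockout 3 and control 3. MT-TW, the tryptophan transfer RNA and the gene with the largest difference of the 37, had 14.9, 18.4 and 10.8 CPM against 1.86, 2.38 and 2.09 CPM. MT-CO1, the catalytic subunit of cytochrome c oxidase, had 2459, 2606 and 1968 CPM against 1205, 899 and 914 CPM. Summed over genes, minus-strand transfer RNAs were at 461 ± 97.6 ppm in the many-feature libraries and 81.6 ± 16.6 in the few-feature libraries, and plus-strand ones at 160 ± 31.4 and 41.3 ± 6.07. MTCO1P12, a nuclear copy of part of the mitochondrial genome on chromosome 1, had 76.3, 75 and 67.6 CPM against 35.9, 27.9 and 29.8 CPM, and reads may be split between it and MT-CO1.

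The closeness of the 2 strands is shown by MT-TI and MT-TQ, the isoleucine and glutamine transfer RNAs, which overlap at their 3′ ends on opposite strands. MT-TI lies at chrM:4263-4331 on the plus strand and MT-TQ at chrM:4329-4400 on the minus strand (GRCh38, sequences from the GENCODE 29 transcripts). The capitals mark the 3 shared positions, each read on its own strand.
MT-TI: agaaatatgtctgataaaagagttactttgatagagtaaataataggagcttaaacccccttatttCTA
MT-TQ: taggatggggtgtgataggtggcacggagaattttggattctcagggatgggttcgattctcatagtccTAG
MT-TQ had 99.7, 99.8 and 67.9 CPM in the many-feature libraries, against 13.1, 23.0 and 20.4 CPM in the few-feature libraries, and MT-TI had 9.55, 11.9 and 7.10 CPM against 2.26, 1.85 and 2.59 CPM. Their differences were 2.27 ± 0.13 and 2.04 ± 0.21 on the log2 scale. The strand setting of the counting is not given in the sources used here. Reads from the opposite strand of a mitochondrial gene may therefore be among its counts.

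**Figure D4:**
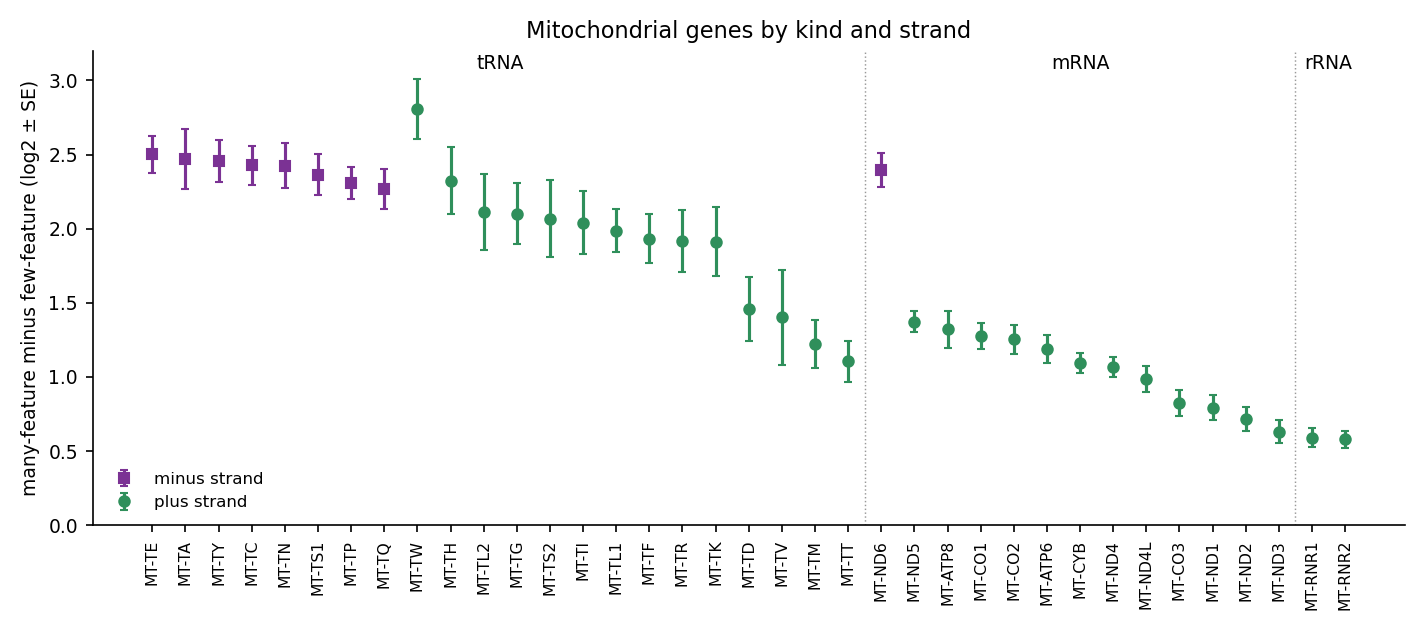
Difference between many-feature and few-feature libraries (log2 ± SE, knockout status as a term) for the 37 mitochondrial genes by kind, with minus-strand genes as purple squares and plus-strand genes as green circles. Minus-strand transfer RNAs and MT-ND6 lie at 2.27 to 2.50, plus-strand messenger RNAs at 0.63 to 1.37 and the 2 ribosomal RNAs at 0.58 and 0.59.

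The U3 small nucleolar RNAs, which take part in the first cuts of the ribosomal RNA precursor, had the largest differences in the lower direction among genes of at least 5 CPM in the higher side. SNORD3D had 229 CPM in knockout 1, 190 in control 1 and 391 in control 2, against 3106 in knockout 2, 1214 in knockout 3 and 2574 in control 3. Its difference was -3.19 ± 0.22 on the log2 scale, -3.08 within knockout libraries and -3.24 within control libraries. SNORD3C and SNORD3B-2, with differences of -3.15 and -3.11, and the overlapping AC007952.4, with -3.18, had nearly the same CPM as SNORD3D in every library. These 4 entries cannot be told apart and are taken here as 1 signal of uncertain origin. SNORD3A, another entry of the family, had 4.91, 1.02 and 6.46 CPM against 28.4, 9.34 and 23.8 CPM. The sequences are shown because the copies are nearly identical, with 214 bases in common between the 217 of SNORD3A (chr17:19188016-19188232, plus strand) and the 218 of SNORD3D (chr17:19112419-19112636, minus strand). Capitals mark bases not matched between the 2.
SNORD3A: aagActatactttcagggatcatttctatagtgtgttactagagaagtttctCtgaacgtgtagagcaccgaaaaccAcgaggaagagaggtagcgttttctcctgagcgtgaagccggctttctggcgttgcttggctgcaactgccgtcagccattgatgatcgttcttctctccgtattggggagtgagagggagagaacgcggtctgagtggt
SNORD3D: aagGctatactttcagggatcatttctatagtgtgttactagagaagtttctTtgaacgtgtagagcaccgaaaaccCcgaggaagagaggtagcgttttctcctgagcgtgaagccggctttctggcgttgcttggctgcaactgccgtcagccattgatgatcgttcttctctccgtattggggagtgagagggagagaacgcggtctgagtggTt

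SNORA73A and SNORA73B, H/ACA-type small nucleolar RNAs within the RCC1 locus, showed the same direction at lower contrast. SNORA73A (chr1:28507366-28507571) had 134, 132 and 178 CPM in knockout 1, control 1 and control 2, against 448, 369 and 437 CPM in knockout 2, knockout 3 and control 3, a difference of -1.55 ± 0.08. SNORA73B (chr1:28508559-28508762) had 107, 120 and 147 CPM against 561, 285 and 346 CPM, a difference of -1.66 ± 0.15. The copies lie on the plus strand of GRCh38 and share 192 aligned bases, 93.2% of the longer one, with the unmatched bases in capitals.
SNORA73A: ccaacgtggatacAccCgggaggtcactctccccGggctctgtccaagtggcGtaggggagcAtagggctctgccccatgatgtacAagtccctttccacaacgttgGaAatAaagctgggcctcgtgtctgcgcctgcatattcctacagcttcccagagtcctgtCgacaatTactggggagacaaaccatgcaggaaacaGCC
SNORA73B: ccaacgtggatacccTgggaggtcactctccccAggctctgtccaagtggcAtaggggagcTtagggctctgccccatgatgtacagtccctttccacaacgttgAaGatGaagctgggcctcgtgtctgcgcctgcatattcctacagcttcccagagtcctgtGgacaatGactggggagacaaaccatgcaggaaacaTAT
The family did not move as a block. Of 181 small nucleolar and Cajal body RNAs tested, 42 (23.2%) were lower without overlap and 19 (10.5%) higher, against 15.1% and 15.2% of all genes, with a median of -0.14. Much of the summed share of the class thus lay in the U3 entries.

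Well expressed RNAs made by RNA polymerase III were lower in the many-feature libraries. RMRP, the RNA of RNase MRP, had 1814, 1882 and 2679 CPM in knockout 1, control 1 and control 2, against 5363, 4869 and 6256 CPM in knockout 2, knockout 3 and control 3, a difference of -1.48 ± 0.08. RPPH1, the RNA of RNase P, which trims transfer RNA precursors, had 3972, 2437 and 3316 CPM against 9418, 8502 and 7017 CPM. AL355075.4, an antisense entry over the same place, had nearly the same CPM as RPPH1 in every library and made up much of the summed antisense share, which was 6940 ± 834 ppm in the many-feature libraries and 10496 ± 1170 ppm in the few-feature libraries (SD, n = 3 each). RN7SL1, the RNA of the signal recognition particle, had 5235, 5807 and 7107 CPM against 12183, 11615 and 12689 CPM, and AL139099.4 had the same counts. RN7SL2, its paralog, overlapped between the sides because control 2 had 12227 CPM, above the 11591 and 10893 CPM of the few-feature knockout libraries. RN7SK, which holds back transcription elongation, had 6396, 4442 and 5676 CPM against 10373, 11126 and 8789 CPM. Of the 9 such RNAs tested, a group that also holds TERC, 7 (77.8%) were lower without overlap and 0 higher. Among all genes 15.1% were lower and 15.2% higher. The median of the 9 was -1.02.

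TERC, the RNA of telomerase and a product of RNA polymerase II, had 35.8, 35.9 and 39.6 CPM in the many-feature libraries, against 98.4, 86.5 and 104 CPM in the few-feature libraries. Its difference was -1.42 ± 0.07. Spliceosomal RNAs went the same way, with 20 of 38 (52.6%) lower and 2 (5.26%) higher without overlap, against 15.1% and 15.2% of all genes. Their median was -0.42. RNU4-2, a U4 gene, had 7.14, 7.08 and 6.86 CPM against 15.0, 17.4 and 14.3 CPM, and RNU2-2P, a U2 gene, had 29.1, 28.9 and 35.0 CPM against 68.4, 51.2 and 68.1 CPM. In PLATE-seq, where RNA is captured by its poly(A) tail, SNORD3D, SNORA73A, RMRP, RN7SL1, RN7SL2, TERC and RNU2-2P had no count in any library. RPPH1 had 61 counts in 9 of the 12 libraries, RNU4-2 had 16 in 3, SNORA73B 15 in 4, RN7SK 13 in 5 and SNORD3A 2 in 1.

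Histone messenger RNAs of the replication-dependent kind, which end in a stem-loop and not in a poly(A) tail, were mostly lower in the many-feature libraries. Of 71 tested, 59 were lower without overlap and 0 higher, against 15.1% and 15.2% of all genes, and 2 passed 2-fold. Their median was -0.58, and the summed share was 5485 to 6015 ppm in the many-feature libraries and 7486 to 7907 in the few-feature libraries. HIST1H3H, an H3 gene, had 47.2, 46.7 and 59.8 CPM in knockout 1, control 1 and control 2, against 95, 86.7 and 106 CPM in knockout 2, knockout 3 and control 3. HIST3H2A, an H2A gene, had 12.8, 15.4 and 18.0 CPM against 26.2, 23.5 and 37.4 CPM. Near-identical histone copies can share reads, so single members are less certain than the group.

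Lists of cell cycle genes had medians near the 0.02 of all genes, and their counts without overlap leaned in opposite directions. Of 30 proliferation and mitosis genes, 8 (26.7%) were higher and 1 (3.33%) lower without overlap, against 15.2% and 15.1% of all genes. Their median was 0.04. CENPE, a kinetochore motor, had 224, 242 and 218 CPM in the many-feature libraries, against 171, 173 and 179 CPM in the few-feature libraries. Of 39 DNA replication genes, 3 (7.69%) were higher and 12 (30.8%) lower, with a median of -0.05. Among 25 SR splicing factors and hnRNPs, 8 (32.0%) were higher and 2 (8.0%) lower, HNRNPH1 with 899, 987 and 911 CPM against 706, 646 and 731 CPM.

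Lists of ribosomal protein, respiratory chain and proteasome genes had more members lower than higher in the many-feature libraries, by small amounts. Of 78 cytosolic ribosomal protein genes, 37 (47.4%) were lower and 4 (5.13%) higher without overlap, against 15.1% and 15.2% of all genes, with a median of -0.21 on the log2 scale. RPS19, of the small ribosomal subunit, had 398, 355 and 447 CPM in the many-feature libraries, against 625, 615 and 583 CPM in the few-feature libraries. Of 53 nuclear genes of the respiratory chain, 26 (49.1%) were lower and 1 higher, with a median of -0.19, the opposite sign to the 13 messenger RNAs of the mitochondrion itself at 1.09. NDUFB7, a complex I subunit, had 32.4, 35.1 and 36.5 CPM against 50.4, 49.4 and 53.7 CPM. Of 31 proteasome subunits, 11 (35.5%) were lower and 1 higher, with a median of -0.17. The summed shares of the ribosomal protein, nuclear respiratory chain and proteasome lists each overlapped between the sides. Ribosomal protein genes summed to 50039 to 55284 ppm in the many-feature libraries and 50590 to 55459 in the few-feature libraries. Of 433 zinc finger genes named ZNF, 69 (15.9%) were higher, near the share of all genes, and 43 (9.93%) lower.

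Lists of signalling genes were near the middle. Interferon-stimulated genes, of which 39 were tested, had 5 higher (12.8%) and 5 lower (12.8%) without overlap, near the 15.2% and 15.1% of all genes. Their median was 0.09, and 2 passed 2-fold in the higher direction, as 4.13% of all genes did. IFI44L had 6.30, 3.50 and 3.39 CPM in the many-feature libraries, against 2.38, 3.31 and 1.71 CPM in the few-feature libraries. Among 25 NF-kappa-B targets and chemokines 0 were higher and 4 (16.0%) were lower, the latter near the share of all genes. RELB, an NF-kappa-B subunit, had 35.7, 25.9 and 32.1 CPM against 57.2, 54.1 and 42.5 CPM. Of 22 immediate early genes 5 (22.7%) were higher and 2 (9.09%) lower, and 2 of them stood at opposite ends. FOSB had 7.14, 4.35 and 2.99 CPM against 1.86, 2.32 and 1.21 CPM, while IER2 had 56.4, 56.6 and 59.4 CPM against 90.5, 91.2 and 101 CPM. CD274, which encodes PD-L1, had 3.71, 4.1 and 4.2 CPM against 2.15, 1.59 and 3.36 CPM, without overlap and under 2-fold.

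The protein-coding genes at either end differed in build. The 440 higher ones had a median span of 71570 bp and a median exonic length of 7281 bp, the 20 lower ones 5176 bp and 1333 bp, and all 13659 protein-coding genes tested 35800 bp and 5157 bp. Their median levels were 0.884, 9.94 and 26.2 CPM, so the sets were not of like level. Of the 440, 437 had a mean under 5 CPM, and such genes passed the filter largely through the side where they were high. The filter took no account of gene length, and its part in the length contrast was not tested. TTN, the gene of the giant muscle protein titin, had 7.69, 7.25 and 3.23 CPM in knockout 1, control 1 and control 2, against 0.580, 1.59 and 1.43 CPM in knockout 2, knockout 3 and control 3. RYR2, a calcium channel of heart muscle, had 5.75, 6.57 and 4.84 CPM against 1.04, 1.59 and 1.71 CPM, and GRIN2B, a glutamate receptor subunit of neurons, had 7.05, 5.63 and 2.83 CPM against 0.638, 1.72 and 1.60 CPM. These are long genes of other tissues at a few CPM. At the other end, TMEM160, a small membrane protein gene with 72.2% GC, had 2.87, 2.65 and 2.02 CPM against 8.76, 7.88 and 9.74 CPM, and C4orf48, with 73.2% GC, had 4.17, 4.78 and 4.92 CPM against 17.2, 11.7 and 16.0 CPM. RYR2 and GRIN2B, too, were picked after their values were seen.

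Base composition ran through the whole range of protein-coding genes. In the decile with the lowest GC content of exonic sequence, with a median of 37.0%, the median difference was 0.15 on the log2 scale, and 30.3% of genes were higher and 0.293% lower without overlap. In the decile with the highest GC content, with a median of 64.0%, the median difference was -0.27, and 6.0% were higher and 42.9% lower. The 8 deciles between fell in order. Across genes, Spearman's rho between GC content and the difference was -0.47 over 13659 genes and -0.73 over the 4307 genes at 50 CPM or more, where counting noise is least. The genes share the same 6 libraries and are not independent replicates, so rho is given without a p-value. Span gave a weaker relation, with rho of 0.29, from -0.19 in the shortest decile to 0.09 in the longest. At 5 to 50 CPM, rho was -0.58 for GC content and 0.31 for span over 6735 genes. Genes below 5 CPM passed the filter largely through the side where they were high, and no relation is given for them alone.

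**Figure D5:**
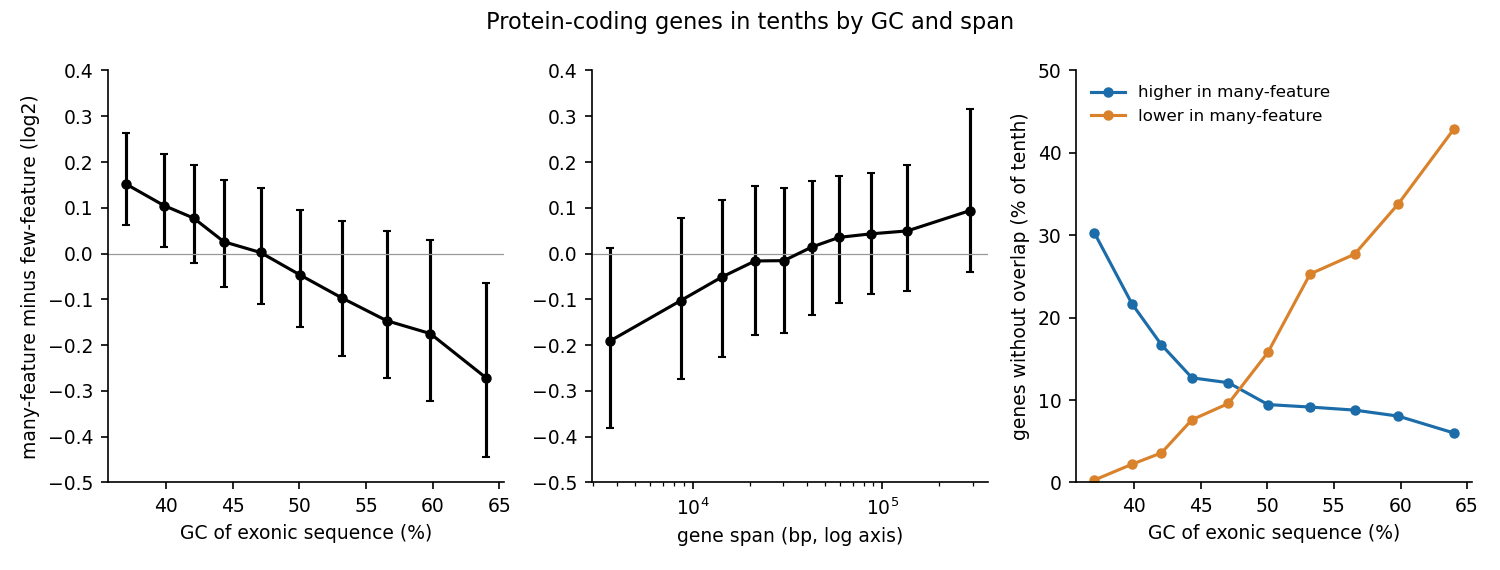
Protein-coding genes in deciles by GC content of exonic sequence and by gene span (log axis), with the median difference between many-feature and few-feature libraries (log2) and bars from the lower to the upper quartile, and at right the percent of genes in each GC decile that do not overlap between the sides. The lower share grows to 42.9% at the highest GC content and the higher share to 30.3% at the lowest.

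The PLATE-seq libraries, made from polyadenylated RNA and not used to choose the split, had few reads of the higher genes. Of the 717, 550 were in that table and 269 of them, 48.9%, had at least 1 count summed over the 12 libraries, against 89.9% of 13995 tested genes in that table. Among protein-coding genes alone it was 48.0% of 431 higher genes and 88.9% of 18 lower genes, against 93.3% of all 12885. The higher genes were lowly expressed in the TruSeq libraries too, with a median of 0.882 CPM against 26.6 CPM in those protein-coding sets, and PLATE-seq depth was 807861 to 3068887 counts a library. At that depth a gene of this level may go unseen.

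Genotype came from the labels and was not used to form the sets, so it could be tested with the side as a term. With that term, 3793 of 17371 genes (21.8%) passed an adjusted p of 0.05 between knockout clone 1 and control, 1981 higher (11.4%) and 1812 lower (10.4%), by edgeR's quasi-likelihood test with Benjamini-Hochberg adjustment. Without it the count was 1089 (6.27%). All 1089 were among the 3793, and 2690 of the 2704 gained genes had the same sign in both fits. The biological coefficient of variation, the spread between replicates beyond counting noise, was 0.0516 with the side term and 0.123 without it. The side term was chosen on these same counts, and the p-values take no account of that choice. The count was 1605 without knockout 1 and 1313 without control 3, each the only library of its genotype on its side, and 3140 to 4195 without any 1 of the other 4.

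Without the side term, 688 genes (3.96%) were higher and 401 (2.31%) lower. Counts of calls in single lists are given with and without the term, and the difference between the 2 fits was not tested. Of 25 NF-kappa-B targets and chemokines, 18 rose (72.0%) and 2 fell in the knockout with the side term, against 13 (52.0%) and 2 without it. Of 39 interferon-stimulated genes, 15 rose (38.5%) and 2 fell with the term, against 3 (7.69%) and 1 without. Of 78 ribosomal protein genes 0 rose and 25 (32.1%) fell, against 0 and 4 (5.13%), and of 30 proliferation genes 1 rose and 10 (33.3%) fell, against 1 and 2 (6.67%). Of the 37 mitochondrial genes, 2 rose and 0 fell with the term. The median knockout difference was 0.36 on the log2 scale for NF-kappa-B targets, 0.25 for interferon-stimulated genes, -0.11 for ribosomal protein genes and -0.08 for proliferation genes, against 0.00 over all genes.

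SHISA9, which encodes an auxiliary subunit of glutamate receptors, headed the genes called only with the side term. It had 3.43, 2.21 and 2.25 CPM in knockout replicates 1 to 3, against 0.853, 0.888 and 0.165 CPM in control replicates 1 to 3, and rose by 2.48 ± 0.40 on the log2 scale (SE, edgeR adjusted p = 2.5e-05). Without the side term its adjusted p was 0.0530, and its call held when any single library was left out. EGR2, an immediate early transcription factor, had 1.39, 1.04 and 1.13 CPM against 0.683, 0.404 and 0.110 CPM, and rose by 1.96 ± 0.51 (edgeR adjusted p = 0.00580), but without control 3 it had an adjusted p of 0.305. CNTFR, a cytokine receptor subunit, rose by 2.18 ± 0.48 (edgeR adjusted p = 0.00134), with 0.0631 without control 3 and 0.0774 without knockout 1. The 3 genes are expressed near 1 CPM. CD274 had 3.71, 2.15 and 1.59 CPM in knockout libraries, against 4.1, 4.2 and 3.36 CPM in control libraries, and did not pass with the side term (-0.51 ± 0.24, edgeR adjusted p = 0.147) or without it (0.261).

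Whether the knockout difference itself depended on the side was tested by an interaction term. Of 17371 genes, 0 (0%) passed an adjusted p of 0.05 in edgeR's quasi-likelihood test, whose lowest adjusted p was 0.926, and 0 passed in DESeq2. At an unadjusted p of 0.05 there were 448 genes (2.58%) in edgeR and 34 in DESeq2. The fit had 2 residual degrees of freedom and a median standard error of 0.226 on the log2 scale, against 0.109 for the knockout difference. Each side had a single library in 1 of its arms. With 1 library left out, the term could still be fitted in 4 of 6 cases, with 1 residual degree of freedom, and 10 genes passed without control 1, 11 without control 2, 8 without knockout 2 and 2 without knockout 3.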

How the data were processed

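The authors deposited raw read counts per gene symbol, made from STAR alignments to hg38 and counted with HTSeq, per the submitters' processing notes. Versions, annotation release and strand setting are not given in the sources used here. The 6 TruSeq libraries held 10257584 to 19270648 counts each, and the 12 PLATE-seq libraries 807861 to 3068887 without 92 spike-in entries. Of 57120 symbols, 57106 matched GENCODE 29 on GRCh38, which gave class, position, length and GC content, and the other 14 were turned into dates in the deposited table. Also, 14 symbols with at least 50 counts shared all their counts with another symbol.

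Counts were filtered with edgeR 4.0.16 (R 4.3.3, filterByExpr by side, leaving 17371 genes) and scaled by TMM. The difference between sides came from a fit with a knockout term and was not tested. Knockout against control was tested by the quasi-likelihood method with a side term and 3 residual degrees of freedom, and its dependence on the side by an interaction. DESeq2 1.42.0 was an alternative. The scripts were tested on simulated data. Differences within a genotype are of mean log2(CPM + 0.5). Counts at a common depth are expected values. Pairs of libraries of 1 genotype differed beyond sampling noise (chi-square per degree of freedom 5.75 to 33.9), so none was counted as a duplicate.

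The libraries, gene lists (32) and rules were chosen with earlier results of these data known. Genes were named by rule: the 12 with the largest fitted difference in each direction among those at least 2-fold apart without overlap at 5 CPM or more in the higher side, up to 3 per RNA class, up to 4 per list, and up to 8 knockout calls gained with the side term. Genes picked outside it are marked in the text. Replicate numbers are those of the labels.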

Additional observations from a re-analysis of the deposited data

How the results depend on the processing

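For the 24 genes with the largest difference at 5 CPM or more in the higher side, the direction did not reverse in any run. These genes were chosen in the same data for no overlap and a large difference, so a reversal was hardly possible. The other named genes were not run. Of the values for the 24 genes, 200 moved by less than the SD within a side, pooled over the sides, and 16 by more. That SD includes the difference between genotypes. With 1 library left out, 137 moved by less and 7 by more. The 200 include the values of the 4-fold run, which repeats the main fit and could not move. The counts of 717 higher and 70 lower genes were 713 and 70 with DESeq2 size factors, 741 and 66 with TMM factors from protein-coding genes, 722 and 74 without the knockout term, and 578 and 91 within knockout libraries. They became 5931 and 278 with no filter, which also moved the median of all genes to 0.547 on the log2 scale, 336 and 60 with a filter on the mean, 265 and 6 at 4-fold, and 454 and 61 within control libraries. With each library left out they were 1002 to 1555 and 75 to 140. The ratio of genes detected was 1.11 with at least 5 counts and 1.36 at a common depth. The share of higher genes seen in PLATE-seq was 15.6% with at least 10 counts. The knockout calls were 3815 with DESeq2 size factors and 3837 with the mean filter, but 2332 with no filter, 1089 without the side term, 2488 with DESeq2's Wald test, and 1313 to 4195 with each library left out. The cause of these changes was not tested. The 8 named knockout calls were those lost without the side term, by the rule that chose them, and 4 of them, PECAM1, AC074141.1, EGR2 and AC083967.1, were lost with the replicate block too. Of the 8, only SHISA9 got an adjusted p from DESeq2's Wald test, and only SHISA9 and PECAM1 passed the filter on the mean. The interaction gave 0 genes with DESeq2 size factors, with both other filters and with DESeq2's Wald test, and 2 to 11 with a library left out. It could not be fitted without control 3 or knockout 1. With a replicate block, the counts were 720 and 88 between the sides and 2387 for the knockout in place of the side term. Same-numbered libraries had deviations from the genotype mean with correlations of 0.581, -0.249 and 0.417, and knockout 2 correlated best with control 3 (0.569). The side was left in these deviations, and same-numbered libraries share a side for replicates 1 and 3 but not 2. The signs thus follow the split, and the check cannot tell whether the numbers pair the libraries. No paired analysis was possible for the interaction because no residual degrees of freedom were left. Depth limits the genes under 1 CPM, and single libraries in 1 arm of each side limit the knockout tests.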

Other observations

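MicroRNA loci, which in libraries of long RNA are mostly read from their host transcripts or precursors, leaned to the lower side. Of 133 tested, 37 (27.8%) were lower and 11 (8.27%) higher without overlap in the many-feature libraries, against 15.1% and 15.2% of all genes, with a median of -0.22 on the log2 scale. MIR612, which lies within NEAT1, had 9.09 CPM in knockout 1, 7.94 in control 1 and 11.9 in control 2, against 2.44 in knockout 2, 3.77 in knockout 3 and 2.86 in control 3. Its direction was that of NEAT1. MIR636, within the splicing factor gene SRSF2, had 4.36, 5.63 and 7.02 CPM against 15.8, 11.98 and 13.8 CPM. Both were picked after their values were seen.

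Lists of metabolism and stress genes differed by small amounts. Of 28 hypoxia and glycolysis genes, 8 (28.6%) were lower and 1 (3.57%) higher without overlap, against 15.1% and 15.2% of all genes. Their median was -0.14. ENO1, the glycolytic enolase, had 1734, 1679 and 1843 CPM in knockout 1, control 1 and control 2, against 2275, 2192 and 2216 CPM in knockout 2, knockout 3 and control 3. Of 24 cholesterol synthesis genes, 8 (33.3%) were lower and 3 higher, with a median of -0.09. MVD, a decarboxylase of the mevalonate pathway, had 21.2, 24.9 and 29.8 CPM against 34.1, 31.5 and 36.6 CPM. Of 27 genes of the unfolded protein and integrated stress response, 6 (22.2%) were lower and 1 (3.7%) higher. Of 24 p53 targets, 2 (8.33%) were lower and 0 higher. Of 33 mesenchymal and matrix genes, 4 (12.1%) were higher and 4 (12.1%) lower between the sides, near the shares of all genes. In the knockout 17 rose (51.5%) and 6 fell (18.2%) by edgeR with the side term, against 11.4% and 10.4% of all genes. Without the term 13 rose (39.4%) and 4 fell (12.1%), against 3.96% and 2.31% of all genes.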
